A study of Mus musculus with 8 samples.

Results

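The regions described here are H3K36me3 peaks of control mouse embryonic stem cells that lie in protein-coding genes longer than 200 kb and have no counterpart in the knockdown peak list. A control peak was a member if it lay on chromosomes 1 to 19, was 10000 bp or shorter, had its midpoint in such a gene, and shared no base with any peak called after Setd2 knockdown. The members were thus chosen by the measured absence of an overlapping knockdown peak. By this rule 1688 of the 30634 control peaks were members, which is 5.51% of them (exact Clopper-Pearson 95% interval, 5.26 to 5.77%). They covered 4.24 Mb, or 3.83% of all sequence under control peaks, and lay in 365 of the 945 autosomal protein-coding genes over 200 kb. Such genes make up 4.57% of the 20665 autosomal protein-coding genes in the RefSeq table.

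The cells were feeder-free mouse embryonic stem cells that carry a doxycycline (Dox)-inducible knockdown of Setd2, grown as spheres in a serum-free medium with PD0325901 (1 µM), which blocks MEK, CHIR99021 (3 µM), which blocks GSK3, and LIF at 1000 U/ml. Control cells received no Dox, and knockdown cells received Dox at 1 µg/ml for 4 days. Each condition had 2 H3K36me3 libraries and 2 input libraries, 8 in all, and the authors merged both replicates before they called peaks, so that there is 1 peak list per condition. The control ChIP kept 36244210 tags and the knockdown ChIP 29416169 after duplicate removal. No spread between replicates can be taken from merged lists, so every interval covers counting error only, and no test between conditions was possible. Control peaks touched 18 of 20 genes of naive pluripotency, 1 of 10 fibroblast, 2 of 10 neuronal and 1 of 10 primitive endoderm marker genes.

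H3K36me3 is laid down in the wake of elongating RNA polymerase II by Setd2, the main enzyme that trimethylates this lysine in mammals. It therefore marks the bodies of transcribed genes, typically more toward the 3′ end than at the promoter, and it is read by proteins that act in DNA methylation, splicing and the silencing of start sites inside genes. Very long genes consist mostly of introns and include many that serve neurons and cell adhesion, and such a gene may use several start sites far apart. A peak called "lost" here is one that was not called after knockdown. Its signal may have fallen only below the threshold of the peak caller, and a lower signal in every cell cannot be told apart from signal in fewer cells.

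The sequences before 6 listed start sites are shown first, since the positions of lost peaks are later given relative to these starts. In Plekhg1, a guanine nucleotide exchange factor, Rps6ka2, a ribosomal S6 kinase, Sipa1l1, a GTPase-activating protein for Rap, and Shroom3, an actin-binding protein of apical constriction, every control peak lay downstream of a start site listed deep inside the gene. Macf1, a crosslinker of actin and microtubules, and Vps13d, a lipid transfer protein, were the members' genes in which a lost peak covered a listed start of the gene itself. Each line gives the 250 bases just upstream of the listed start on the gene's strand, 5′ to 3′, from RefSeq on GRCm38.p6 (mm10), with CpG dinucleotides in capitals.
Plekhg1: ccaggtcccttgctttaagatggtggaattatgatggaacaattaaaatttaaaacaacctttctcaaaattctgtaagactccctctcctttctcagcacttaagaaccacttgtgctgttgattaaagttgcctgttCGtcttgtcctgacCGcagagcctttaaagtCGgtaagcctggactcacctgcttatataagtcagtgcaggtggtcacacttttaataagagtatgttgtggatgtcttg
Rps6ka2: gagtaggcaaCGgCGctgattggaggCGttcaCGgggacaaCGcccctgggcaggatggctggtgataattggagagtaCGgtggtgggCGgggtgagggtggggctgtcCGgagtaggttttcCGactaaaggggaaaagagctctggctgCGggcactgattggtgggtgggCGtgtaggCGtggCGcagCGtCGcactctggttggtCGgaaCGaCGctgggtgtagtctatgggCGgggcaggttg
Sipa1l1: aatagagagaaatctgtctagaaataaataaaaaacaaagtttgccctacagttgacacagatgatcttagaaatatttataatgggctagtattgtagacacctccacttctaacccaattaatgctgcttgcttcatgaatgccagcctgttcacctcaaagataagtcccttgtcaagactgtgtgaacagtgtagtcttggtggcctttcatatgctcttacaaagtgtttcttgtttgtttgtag
Shroom3: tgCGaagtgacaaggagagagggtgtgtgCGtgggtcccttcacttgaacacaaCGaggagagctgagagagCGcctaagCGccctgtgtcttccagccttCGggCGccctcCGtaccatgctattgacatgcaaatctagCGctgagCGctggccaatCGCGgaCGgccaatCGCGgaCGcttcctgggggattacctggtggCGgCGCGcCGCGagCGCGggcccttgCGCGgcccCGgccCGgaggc
Macf1: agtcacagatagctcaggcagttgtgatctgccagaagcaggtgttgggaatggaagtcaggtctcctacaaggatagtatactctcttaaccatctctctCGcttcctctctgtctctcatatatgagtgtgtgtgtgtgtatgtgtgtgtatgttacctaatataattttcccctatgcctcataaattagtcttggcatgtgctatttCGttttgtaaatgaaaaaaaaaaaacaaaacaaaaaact
Vps13d: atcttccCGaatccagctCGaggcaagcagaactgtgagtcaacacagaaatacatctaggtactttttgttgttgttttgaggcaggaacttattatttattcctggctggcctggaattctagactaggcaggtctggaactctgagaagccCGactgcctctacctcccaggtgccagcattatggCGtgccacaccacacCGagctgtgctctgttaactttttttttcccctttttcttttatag

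These windows lay at chr10:3872417-3872666 (plus strand) for Plekhg1, chr17:7169865-7170114 (plus) for Rps6ka2, chr12:82311099-82311348 (plus) for Sipa1l1, chr5:92897743-92897992 (plus) for Shroom3, chr4:123684361-123684610 (minus) for Macf1 and chr4:145190667-145190916 (minus) for Vps13d. The windows before the inner starts differed widely in CpG content. Shroom3 had 27 CpG and Rps6ka2 had 19, whereas Plekhg1 had 3 and Sipa1l1 had 0. The starts under lost peaks had 2 CpG in Macf1 and 5 in Vps13d. The Sipa1l1 and Vps13d windows ended in a T-rich stretch followed by ag. All are starts as listed, and whether transcription begins at them was not measured.

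Loss itself chose the members and is given only as a description. Of the 1789 control peaks of 10000 bp or less in genes over 200 kb, 94.4% were lost, beside 97.4% of 22216 in protein-coding genes of 200 kb or less and 97.2% of 24005 in all protein-coding genes. The other 101 shared bases with a knockdown peak and were kept. A further 21 control peaks in these genes were above 10000 bp, of which 14 were not overlapped in the knockdown. Of the genes over 200 kb, 38.6% (35.5 to 41.8%) held a member. Just inside the limits stood a peak of 9895 bp in Epb41l4a, the gene Pcbp3 at 200264 bp, and a peak in Dlgap2 that lay 11 bp from a knockdown peak. Just outside stood a peak of 10310 bp in Arl15, the gene Atp9b at 199941 bp, and a peak in Pakap that shared 163 bp with a knockdown peak.

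No peak was called in most long genes, as in most genes of any length, and the lost peaks were unevenly shared among the rest. A control peak lay in 40% of the genes over 200 kb, against 43.3% (42.7 to 44.0%) of all 20665 autosomal protein-coding genes, and a lost peak in 38.6% against 39.9% (39.2 to 40.6%). Of the 945 genes, 567 held no control peak, 126 held 1 lost peak, 113 held 2 to 4 and 126 held 5 or more. A further 13 held control peaks of which none was a member. The 126 genes with 5 or more carried 1290 of the 1711 pairs of peak and gene (75.4%), where a peak in overlapping long genes counts once for each and 15 members did so. The 47 genes with 10 or more carried 43.8%, and 12 genes had 20 or more. Genes with no control peak had a median length of 342 kb, genes with 1 lost peak 328 kb, and genes with 10 or more 249 kb (95% interval of the median, 228 to 297 kb). The richly marked genes were thus the shorter ones within this class of very long genes.

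**Figure D1:**
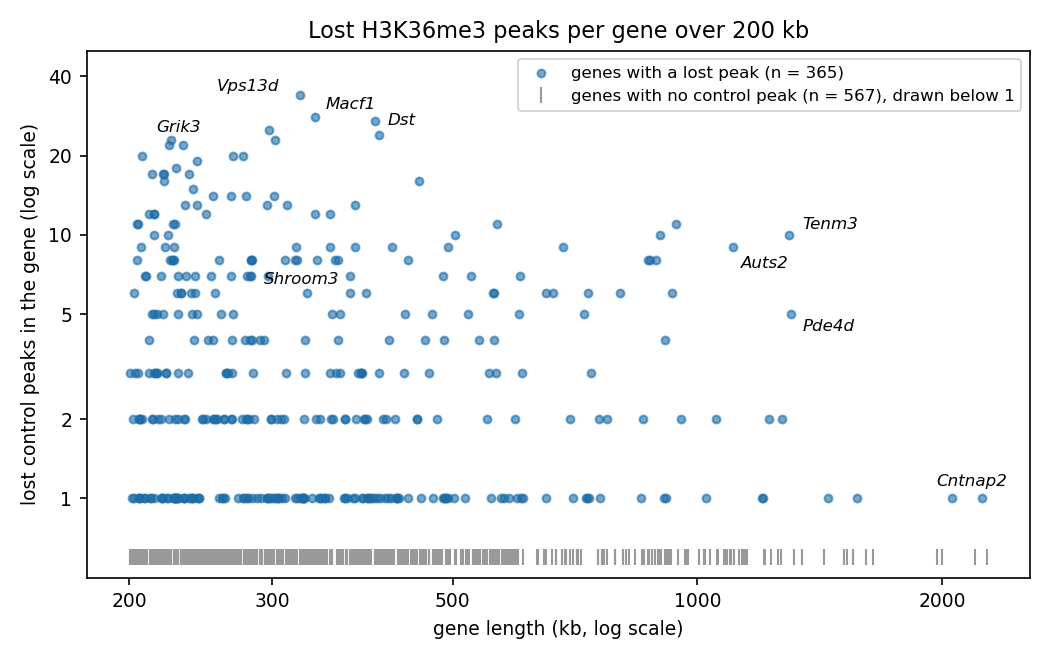
Number of lost control peaks in each gene over 200 kb (y axis, log scale) against gene length in kb (x axis, log scale), with 1 point per gene and ticks below 1 for the 567 genes without a control peak. The highest counts, 34 in Vps13d, 28 in Macf1 and 27 in Dst, lay in genes of 324 to 401 kb, and the longest gene with a lost peak, Cntnap2, had 1.

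The gene with the most lost peaks was Vps13d (chr4:144871045-145195037, minus strand), with 34 over 324 kb and 34.9% of its length under them. Those peaks were 1353 to 8486 bp long, with caller folds over local background of 3.06 to 5.97, and none of its control peaks was kept. Macf1 (chr4:123349633-123687802, minus) had 28 and its paralog Dst (chr1:33907888-34308662, plus), a crosslinker of the cytoskeleton as well, had 27, covering 31.5% and 22.0% of their lengths. Rptor, the raptor subunit of the mTOR complex that senses nutrients, had 25 lost peaks over 297 kb (19.6% covered). Slc39a11, a zinc transporter, had 24 over 405 kb, and its peaks were the most dilute of the leading genes at 12.3% of the length.

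The other leading genes served quite different tasks. Abcc4, an exporter of organic anions and cyclic nucleotides, and Ranbp17, a member of the importin family, had 23 each. Tns3, a tensin of focal adhesions, and Grik3, a subunit of kainate-type glutamate receptors, had 22 each, and Thada had 20. By share of length under lost peaks Tns3 led with 37.9%, ahead of Vps13d, Abcc4 (31.6%), Macf1, Cobl (28.7%), an actin nucleator, and Grik3 (26.3%). Mical3, an actin-oxidising enzyme, stood at 25.05%, Ap3b1, a subunit of a vesicle coat adaptor, at 23.2%, Fryl at 22.9% and Tacc2, a centrosomal protein, at 22.7%. Knockdown peaks had their midpoint in 1 place each in Slc39a11 and Grik3 and in none of the other 8 genes with the most lost peaks.

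Among the longest genes, some held a single lost peak and a few held several. Cntnap2, a neuronal adhesion protein encoded over 2241 kb, had 1 of 1849 bp with 75 tags. Lrp1b, a receptor of the LDL receptor family over 2058 kb, had 1 of 1544 bp, and Ctnna3, an alpha-catenin over 1574 kb, had 1 of 3346 bp. Pde4d, a phosphodiesterase that degrades cyclic AMP, had 5 within 1302 kb. Tenm3, a teneurin, had 10 within 1297 kb and Auts2 had 9 within 1106 kb, and these were the 3 genes above 1000 kb with 5 or more, of 13 with a lost peak. The longest genes with no control peak were Ptprd (2271 kb), Lsamp (2197 kb), Macrod2 (1998 kb), Dlg2 (1973 kb) and Csmd1 (1643 kb), of which Ptprd, Lsamp and Dlg2 encode a receptor phosphatase, an adhesion protein and a scaffold of synapses.

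Genes with more lost peaks also had longer and stronger ones, by the authors' values within the control list. The median share of gene length under lost peaks was 0.531% in genes with 1, 1.52% with 2 to 4, 5.202% with 5 to 9 and 15.7% with 10 or more. Median peak length in the same classes was 1653 bp (1559 to 1751), 1805, 1989 and 2194 bp (2112 to 2314). The caller's score, on a scale of minus 10 times log10 p, had medians of 79.0, 87.3, 96.7 and 115, and the intervals of the first and last class did not overlap for either measure. The median caller fold differed little, at 3.98 in the first class and 4.12 (3.98 to 4.16) in the last. Members' chromosomes ranged from 37 members on chromosome 3 to 183 on chromosome 1, and, per Mb of long gene, from 1.80 on chromosome 3 to 9.80 on chromosome 11.

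Spacing was described with all control peaks of a gene, kept and long ones included. In the 257 genes over 200 kb with at least 2 control peaks there were 1436 gaps between neighbours, with a median of 6510 bp (5706 to 7257) and quartiles of 1542 and 27127 bp. In genes of 50 to 200 kb the median gap was 2543 bp (2440 to 2673) over 8504 gaps, and the intervals did not overlap. Gaps under 1 kb were 19.1% of all in the long genes and 30.5% in the shorter ones, while gaps above 50 kb were 16.4% and 2.35%. In genes with 10 or more control peaks the median gap was 3683 bp (3187 to 4344) over 200 kb and 1791 bp (1687 to 1919) at 50 to 200 kb, where shorter genes leave less room for wide gaps. With control peaks closer than 1 kb joined, the median gap was 10918 bp (9560 to 12396) over 200 kb and 4978 bp (4709 to 5150) at 50 to 200 kb.

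**Figure D2:**
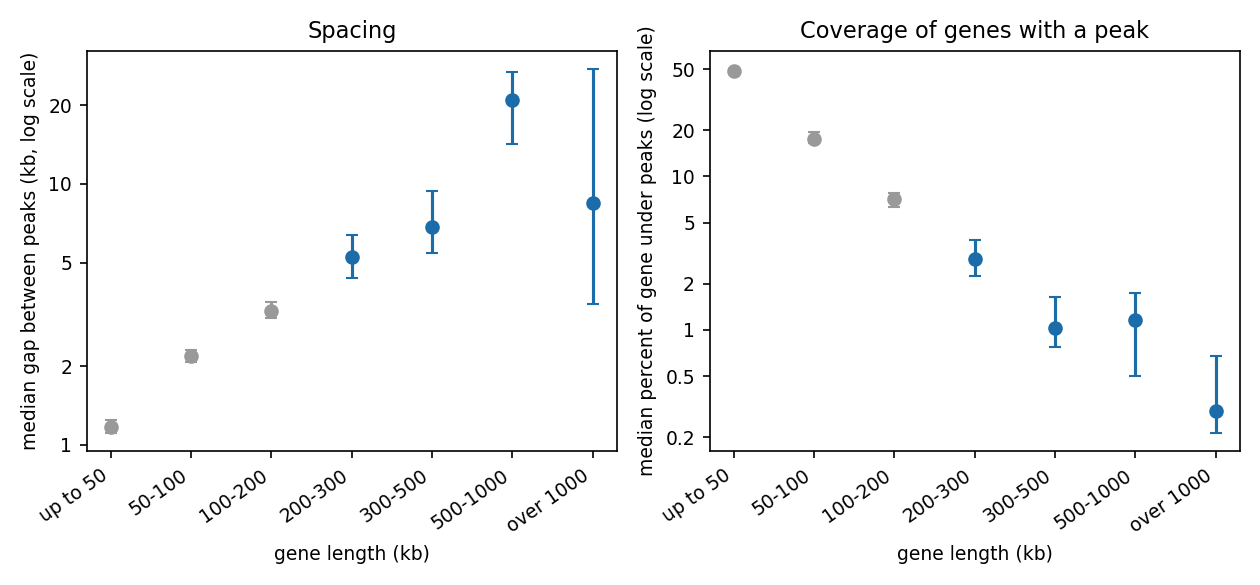
Median gap between neighbouring control peaks in kb (left, log scale) and median percent of gene length under control peaks in genes with a peak (right, log scale) by gene length class, with 95% order-statistic intervals as bars, genes over 200 kb in blue and shorter genes in grey. The median gap goes from 1.17 kb in genes up to 50 kb to 20.9 kb in genes of 500 to 1000 kb, and coverage from 49.0% to 0.295% in genes above 1000 kb. For a given number of bp under peaks, coverage falls as gene length grows.

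The classes within the long genes differed. The share of genes with a lost peak was 43.7% at 200 to 300 kb, 37.9% at 300 to 500 kb, 32.3% at 500 to 1000 kb and 23.6% above 1000 kb, against 36.2% up to 50 kb, 56.6% at 50 to 100 kb and 54.2% at 100 to 200 kb. The share was thus highest at intermediate lengths. Lost peaks per 100 kb in genes with at least 1 had medians of 1.35, 0.520, 0.422 and 0.0977 in the same long classes, against 5.64 and 2.81 at 50 to 100 kb and 100 to 200 kb. In a gene with 1 lost peak this value is set by gene length alone. Of the genes with a lost peak, 27.8% at 200 to 300 kb and 53.8% above 1000 kb had exactly 1. The median gap was 5246 bp at 200 to 300 kb, 6812 bp at 300 to 500 kb and 20903 bp at 500 to 1000 kb. Above 1000 kb it was 8485 bp, with an interval wide enough to hold the values of the neighbouring classes, as the plot of spacing by length shows.

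Within a gene, gaps were very uneven. Runs of lost and other control peaks with gaps of 5 kb or less numbered 1177, of which 874 were single peaks and 42 held 5 or more, with 318 peaks in all. The longest run was in Grik3, with 20 peaks over 86.4 kb. Vps13d had runs of 18 peaks over 70.4 kb and 11 over 63.8 kb, Macf1 of 12 over 58.8 kb and 11 over 85.2 kb, and Tns3 of 10 over 71.9 kb. Ttn, the giant sarcomere protein titin, had a run of 12 over 65.7 kb although 5 of its control peaks were kept.

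Between such runs lay long unmarked stretches. In the 99 genes with 5 or more lost peaks and a known strand, the widest gap had a median of 85.2 kb (79.3 to 96.7), or 29.1% of the gene's length (25.4 to 34.2%). In Macf1, 5 control peaks lay upstream of a gap of 114.9 kb and 24 downstream of it, and Dst had the same layout, with 4 upstream and 24 downstream of a gap of 116.6 kb. Rptor had 2 upstream and 23 downstream of 81.8 kb, and Grik3 3 and 20 around 79.3 kb. Vps13d was the reverse, with 31 upstream and 3 downstream of 63.4 kb. The widest gap was centred on the 5′ side of the midpoint in 46 of the 99 genes (46.5%, 36.4 to 56.8%), and more peaks lay downstream than upstream of it in 62 (62.6%, 52.3 to 72.1%).

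**Figure D3:**
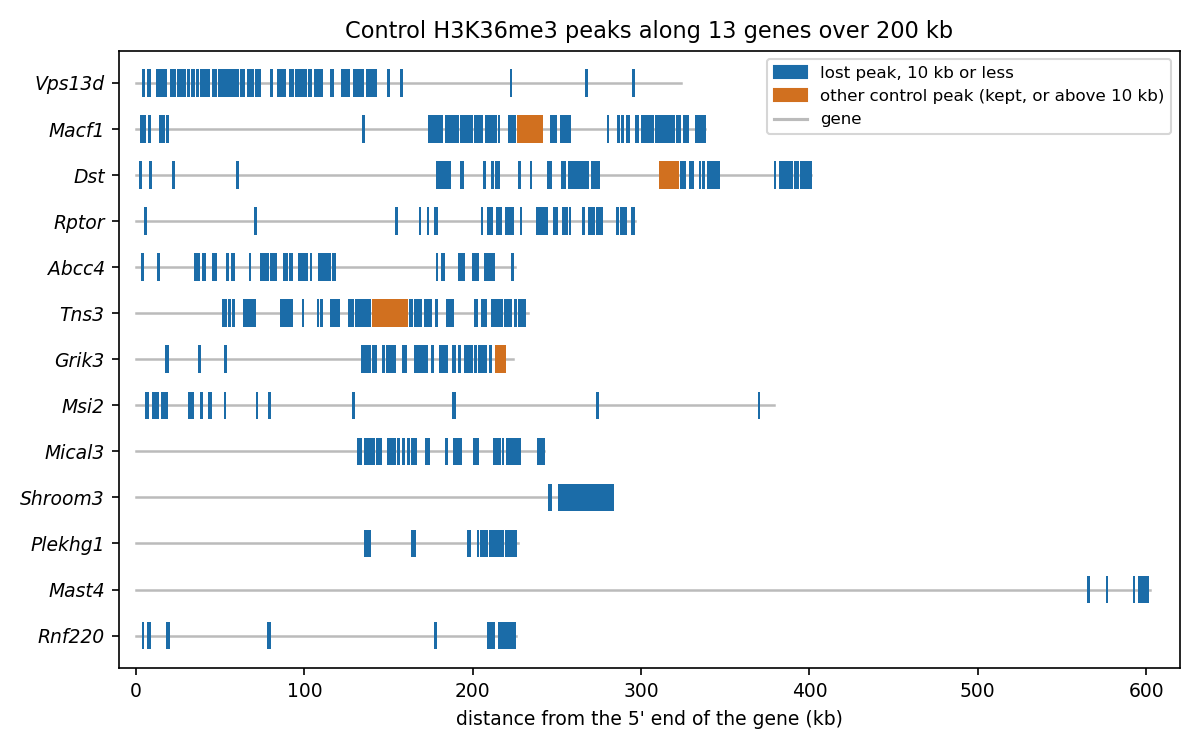
Control peaks along 13 genes, drawn to scale from the 5′ end in kb, with lost peaks of 10 kb or less in blue, other control peaks (kept, or above 10 kb) in orange and the gene as a grey line. Macf1, Dst and Rptor show a few peaks near the start, a gap of 81.8 to 116.6 kb and a dense 3′ block, Vps13d is marked in its 5′ part, and the 5 peaks of Mast4 span 6.09% of the gene near its 3′ end.

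Some of the widest gaps were in genes with few peaks. Gpc6, a heparan sulphate proteoglycan, had lost peaks of 1527 and 1669 bp separated by 861267 bp. Camta1, a transcription activator, had a gap of 639949 bp, Vps13b, a lipid transfer protein related to Vps13d, one of 485239 bp, and Tenm4, a teneurin, one of 473780 bp. The reverse was a tight cluster inside a very long gene. In Auts2, a regulator of transcription in neural development, all 9 peaks, each 1347 to 2695 bp long, lay within 4.54% of 1106 kb. In Mast4, a kinase, 5 peaks lay within 6.09% of 603 kb, and in Trappc9, a subunit of a vesicle tethering complex, 5 lay within 9.90% of 472 kb. Over genes with 3 or more control peaks the median span from first to last peak was 68.7% of the gene (59.3 to 77.5%).

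The lost peaks leaned toward the 3′ end. The strand was known, from the promoter table, for 707 of the 945 genes, and 269 of these held 1327 pairs of member and gene. From the 5′ to the 3′ end, successive parts of 20% of the gene's length held 17.9%, 11.002%, 13.1%, 17.4% and 40.5% (37.9 to 43.2%) of the members, where an even spread would give 20% each. The 3′ side of the gene's midpoint held 64.3% (61.6 to 66.9%). When each gene was weighted equally, the first 20% of the length held 21.1% and the final 20% held 38.7%, so the lean was also seen with equal weights. Without regard to strand the outermost 20% at both ends held 58.4% of the lost peaks, against 40% if even.

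Pooled over peaks, the final stretch held a similar share in genes with many and with few lost peaks, but the 3′ side as a whole did not. In genes with 5 or more lost peaks the final 20% of the length held 41.0% and the final 10% held 24.4%. In the 170 genes with 1 to 4 these were 38.9% and 27.0%. When each gene was weighted equally, the shares were less alike. The final 20% then held 44.8% in the first group and 35.2% in the second, and the final 10% held 28.3% and 24.1%. The 3′ side of the midpoint held 66.5% (63.6 to 69.4%) in the first group and 56.4% (50.6 to 62.1%) in the second, and these intervals did not overlap. Of the 99 genes with 5 or more, 76 had their mean position on the 3′ side of the midpoint (76.8%, 67.2 to 84.7%), 23 had every lost peak there and 3 had every one on the 5′ side. Iqschfp and Schip1 overlap and hold the same 6 lost peaks, and both count in the 76 and the 23. The share in the final 20% of the length was 26.7% (25.6 to 27.8%) for lost peaks in genes of 20 to 50 kb, 29.7% at 50 to 100 kb, 33.8% at 100 to 200 kb and 40.5% over 200 kb, and the intervals of the last class and each shorter one did not overlap. Weighted by gene, the shares were 29.1%, 34.0%, 37.8% and 38.7%, so that the longest classes differed little, and for genes over 300 kb the pooled share was 35.5% (31.6 to 39.5%), which overlapped that at 100 to 200 kb (32.2 to 35.5%). The share on the 3′ side of the midpoint differed less, at 57.9%, 62.5%, 64.0% and 64.3%. The caller fold hardly varied with position, with medians of 3.96 to 4.16 over successive parts of 10% of the length.

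**Figure D4:**
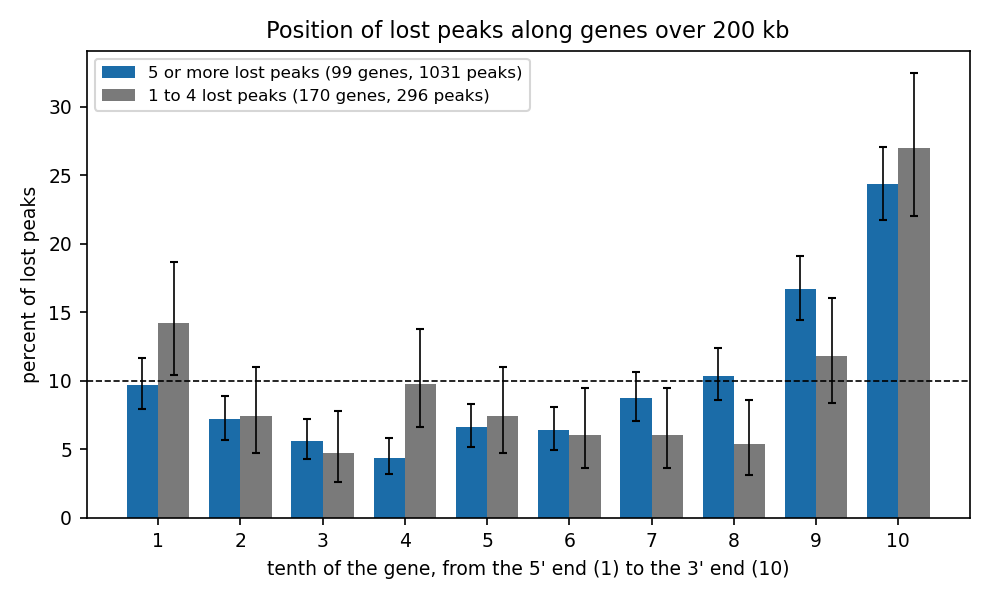
Percent of lost peaks (y axis) in each 10% of the gene's length from the 5′ end (1) to the 3′ end (10), in genes with 5 or more lost peaks (blue) and with 1 to 4 (grey), with exact 95% intervals as bars and a dashed line at the 10% of an even spread. The final 10% holds 24.4% and 27.0%, and the first 10% holds 9.70% and 14.2%.

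In kilobases, lost peaks covered more of the stretch before the gene end than of the stretch after the gene start. Over the 99 genes the first lost peak began a median of 34.5 kb from the gene start (18.2 to 55.8), with quartiles of 5.18 and 129 kb, whereas the last one ended 4.10 kb from the gene end (2.54 to 7.45). Lost peaks covered 8.03% of the first 5 kb, 10.7% of the next 5 kb, 9.11% from 10 to 20 kb and 5.89% from 50 to 100 kb. Measured back from the gene end, they covered 28.6% of the last 5 kb, 32.1% of the 5 kb before it, 26.8% from 10 to 20 kb, 17.8% from 20 to 50 kb and 10.2% from 50 to 100 kb, against 7.82% of the whole genes. The first 20 kb were thus also covered at or above the share of the whole gene, by a smaller margin than the last 20 kb. In genes with 1 to 4 lost peaks the levels were lower, with 2.13% of the first 5 kb, 2.71% of the next 5 kb, 7.06% of the last 5 kb and 0.924% of the whole.

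Single genes showed both layouts. In Mast4 the lost peaks had a mean position at 97.3% of the gene from the 5′ end, and in Pde4d at 95.3%, where the first of the 5 began 1118 kb from the gene start. Shroom3 stood at 94.1%, the chromodomain protein Cdyl at 92.4%, Tenm3 at 92.3% and Kalrn, a guanine nucleotide exchange factor, at 90.7%. The 5′ layout was rarer. In Exoc4, an exocyst subunit, all 5 lost peaks were on the 5′ side of the midpoint, with a mean position at 12.2%, and in Ttll5, a tubulin glutamylase, all 6 were, at 16.3%. Atrnl1 (21.6%), Immp2l, a mitochondrial inner membrane peptidase (24.97%), Stx8, a syntaxin of endosomes (25.1%), and Msi2, an RNA-binding protein of stem cells (26.7%), leaned the same way. In Msi2, 11 of 13 lost peaks lay on that side, and in Vps13d 31 of 34. Exoc4 also had a kept control peak on the 3′ side (chr6:33775008-33777166), and its control peaks spanned 71.2% of the gene.

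Pooled over peaks, the 3′ lean was larger in genes with a start site listed far inside them. Among genes with 5 or more lost peaks, 38 had a listed start at 20% of the length or further in, and 76.4% of their 377 lost peaks lay downstream of the innermost one, which left 42.0% of the length downstream. In some of these genes, such as Plekhg1, Rps6ka2 and Fry, the inner start was the only one listed, and none was listed at the gene's 5′ end. The 3′ side of the midpoint held 77.2% (72.6 to 81.3%) of the lost peaks of these 38 genes, and 60.4% (56.5 to 64.2%) of the 654 in the 61 genes without such a start. Both shares lay above 50%. Peaks of the same gene are not independent, so these intervals cover counting error only. Schip1 is in the first group and Iqschfp in the second, and they hold the same 6 lost peaks. In 14 of the 38 every lost peak was downstream, and in 13 of these every control peak, with 115 lost peaks in the 14. In those genes the first control peak began a median of 40.4 kb beyond the inner start, with a range of 2.72 to 207 kb. Which start the cells used was not measured in these data.

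The 4 genes whose inner starts are printed above had their first control peak nearest to that start. In Plekhg1 (chr10:3740251-3967303, plus) the inner start lay 132.4 kb into the gene, and the first of 9 lost peaks (chr10:3875388-3879940, 277 tags, fold 5.67) began 2.72 kb after it. The remaining peaks of Plekhg1 followed between 3903729 and 3966265, the last 6 separated by gaps of under 1 kb. In Rps6ka2 the inner start was at 81.1 kb and the first of 10 lost peaks 15.7 kb further, and in Sipa1l1 the start was at 142.0 kb and the first of 8 was 27.7 kb further.

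Shroom3 (chr5:92683435-92965759, plus) held the most compact of these blocks. Its inner start lay 214.6 kb into the gene, and its 7 lost peaks followed 30.3 kb later, from 92928320 to 92967304, with a median gap of 142 bp. Their tags were 91, 196, 564, 508, 413, 68 and 228 in order along the gene, and their folds 3.40, 3.40, 6.48, 7.06, 5.61, 4.89 and 5.97. The highest values were thus in the middle of the block, and no knockdown peak had its midpoint in Shroom3.

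Lost peaks in long genes seldom lay on start sites and seldom in other genes. On the chromosomes with listed starts, 20 of 1619 members (1.24%, 0.756 to 1.90%) covered a start listed for any gene, against 327 of 20976 lost peaks in shorter genes (1.56%, 1.396 to 1.74%), and the intervals overlapped. A further protein-coding gene of 200 kb or less also held the midpoint of 33 members (1.95%), and a non-coding gene or pseudogene that of 94 (5.57%). No other listed gene held the midpoint of 1567 members (92.8%).

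The listed start regions of the marked and unmarked long genes differed in CpG content. The outermost listed start was used, and in some genes it lay far inside the gene. It stood 141312 bp from the 5′ end in Fry (9 lost peaks) and 800256 bp in Dpp10 (no control peak). In the 250 bases upstream of the outermost listed start, genes with no control peak had a median of 12 CpG (11 to 14, n = 427), genes with 1 to 4 lost peaks 16.5 (14 to 19, n = 170) and genes with 5 or more 17 (15 to 19, n = 99). The share of starts with 10 CpG or more was 57.8% (53.0 to 62.6%), 69.4% (61.9 to 76.2%) and 74.7% (65.0 to 82.9%), against 37.8% of all 32851 starts in the table. That last share counts every listed start and not 1 per gene, so the sets are unlike. The intervals of unmarked genes and of genes with 5 or more did not overlap for either measure, while those of genes with 1 to 4 met or overlapped both.

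Compared with lost peaks in genes of 200 kb or less, those in long genes were shorter and weaker in the control list. The median length was 1987 bp (1934 to 2051) against 2497 bp (2473 to 2520), the median tag count 87 against 116, and the median score 99.3 (95.3 to 103) against 141 (139 to 143). Fold over local background had a median of 3.98 (3.98 to 4.12) against 4.34, and tags per kb of peak 43.5 (43.2 to 43.8) against 46.1. Members ranged from 948 to 9895 bp, from 40 to 950 tags and from a fold of 2.41 to 9.31, and 113 were 5000 bp or longer. Scores under 100 were held by 852 members and scores of 300 or more by 172.

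The strongest member by score was in Rnf220, a ubiquitin ligase, at chr4:117271126-117278798, over the gene's 3′ end, with 566 tags in 7673 bp, a score of 1426.66 and a fold of 9.31. The next were in Shroom3, at 1197.77 and 1091.13, in Med13l, a subunit of the kinase module of Mediator, at 1137.39 (chr5:118737516-118746436), and in Cobl, at 1062.50. The weakest were a peak of 948 bp with 40 tags in Msi2 and a peak of 1163 bp in Tmem117, both at a score of 50.18, and a peak of 1056 bp in Pde4d at 50.05. The densest members, of 950 tags in 8798 bp in Zfp978 and 297 tags in 3423 bp in Zfp993, had scores of only 53.58 and 53.07. These belong to a family of zinc finger genes in near-identical copies on chromosome 4, so their counts are uncertain where reads matched several copies.

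Sequencing depth moved with the condition. The knockdown ChIP had 0.812 times the tags of the control, and at that depth the members' median of 43.5 tags per kb corresponded to 35.3. The 173 knockdown peaks with their midpoint in genes over 200 kb had a median of 36.2 tags per kb, the lowest at 32.0. At knockdown depth 1443 members (85.5%) would stand at or above that lowest value and 717 (42.5%) at or above the median. The part of depth in the loss of single weak peaks was not tested. The share lost was lower among stronger peaks, at 97.3% for scores under 100, 94.6% for 100 to 200, 92.6% for 200 to 300 and 83.1% (77.3 to 87.9%) for 300 or more. In shorter genes these were 99.3%, 98.8%, 98.3% and 92.9% (92.1 to 93.5%).

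The members were chosen for sharing no base with a knockdown peak, so their distances to one are given only as a description. The knockdown list held 3040 peaks in all, and no distances of other regions are given beside these. The median distance to the nearest one was 257458 bp, 387 members lay within 100000 bp, 64 within 10000 bp and 11 within 1000 bp. A knockdown peak had its midpoint in 125 of all 945 long genes. It did so in 89 of the 365 genes with a lost peak, and 276 had none. A lost and a kept control peak occurred together in 65 genes. Of the 126 genes with 5 or more lost peaks 104 had no kept control peak, and 34 of the 47 genes with 10 or more had no knockdown peak. A knockdown peak without any control peak was found in 23 of the long genes.

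The kept peaks, given for contrast, had a median length of 2791 bp (2500 to 3216), a fold of 4.53 (4.34 to 4.89) and a score of 185 (142 to 261). All were above the members' values by more than the counting intervals. Kept and lost were split by a shared base, which a longer peak is more likely to have. The part of this rule in the differences was not tested. The largest groups of kept peaks were 5 in Etl4, 5 in Ttn, and 3 each in Tiam1, an activator of Rac, Cdh13, a cadherin, and Zfp978. The knockdown peaks in long genes were shorter than the members, with a median of 1471 bp and 53 tags.

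Of the 945 long genes, 382 were in at least 1 of 10 lists, 9 by function and 1 of genes at common fragile sites. Each list is described by its counts beside the share of all long genes, which include the listed ones. The lists were chosen with earlier results of these data known, and no set test was run. Of 69 synaptic adhesion and scaffold genes over 200 kb, 18 held a lost peak (26.1%, 16.3 to 38.1%), led by Tenm3 with 10 and Dlg1 with 7. Of 48 ion channel and transmitter receptor genes 12 did (25%, 13.6 to 39.6%), led by Cacna1a, a calcium channel subunit, with 14 and Itpr1, the calcium release channel gated by inositol trisphosphate, with 12. Of 29 genes at common fragile sites 14 did (48.3%), led by Smyd3, a lysine methyltransferase, with 11 and Auts2 with 9. The interval of the first group ended just below the 38.6% of all long genes, and those of the other groups named here included it.

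Of the other lists, 3 had intervals above the share of all long genes. Of 36 membrane traffic and lipid transfer genes 24 held a lost peak (66.7%, 49.0 to 81.4%), led by Vps13d with 34 and Ap3b1 with 20. Of 44 genes for actin, microtubule and adhesion structure 25 did (56.8%, 41.0 to 71.7%), led by Macf1 and Dst. Of 11 genes for DNA replication, repair and cell cycle 9 did (81.8%, 48.2 to 97.7%), led by Mad1l1, a spindle checkpoint protein, with 13 and Tacc2 with 12. The last of these rests on few genes.

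The remaining groups had intervals that included the share of all long genes. They were chromatin and transcription factors, with 28 of 62 (45.2%, led by Gli2 with 17 and Hdac4 with 14), kinase, phosphodiesterase and small GTPase signalling, with 24 of 72 (33.3%, Rptor with 25 and Camk1d with 9), ubiquitin and protein turnover, with 5 of 17 (29.4%, led by Rnf220 with 8), and RNA processing and decay, with 10 of 19 (52.6%, led by Ranbp17 with 23, which is of the importin family and not known as an RNA processing factor, and Msi2 with 13). The median length of the synaptic group was 857 kb and that of the membrane traffic group 328 kb, against 326 kb for all long genes, and the part of gene length in these shares was not tested.

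**Figure D5:**
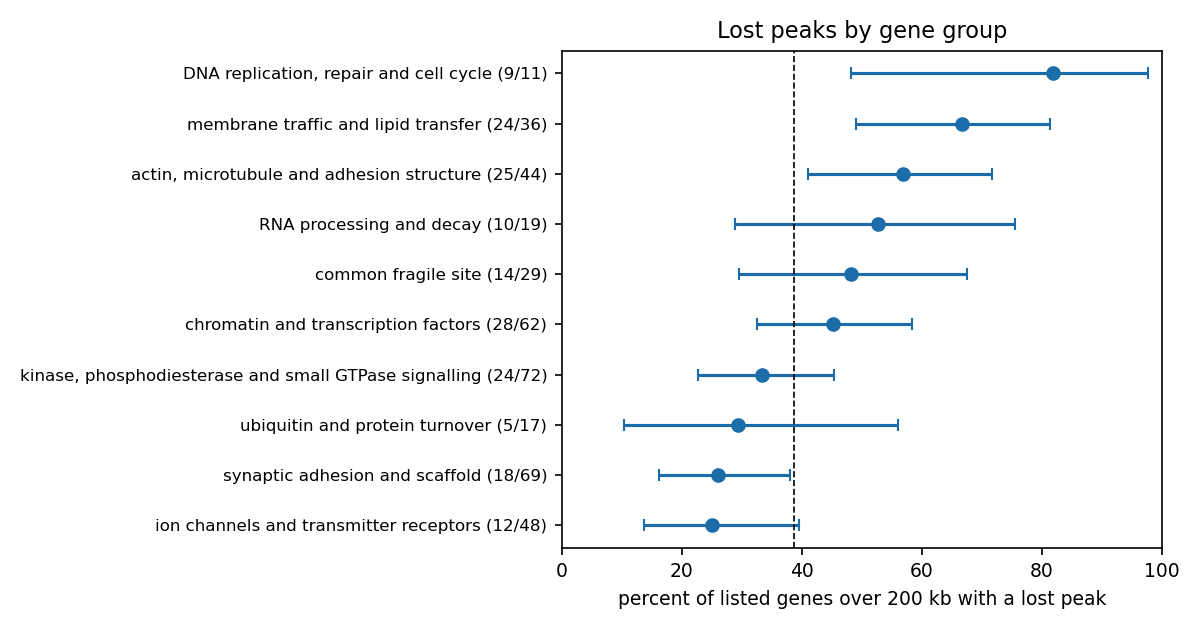
Percent of the listed genes over 200 kb that hold a lost peak (x axis) for 10 lists (y axis, counts in brackets), with exact 95% intervals as bars and a dashed line at the 38.6% of all genes over 200 kb. Ion channel genes (25%) and synaptic genes (26.1%) stand lowest and genes of replication, repair and cell cycle (81.8%) highest.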

How the data were processed

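H3K36me3 ChIP-seq and input libraries of control and Setd2 knockdown cells were grouped by the treatment, antibody and genotype in the labels, where separate cultures per replicate are not stated. The submitters' processing notes name Bowtie 1.1.2, FastQC 0.11.5 and mm10. The treatment of reads that match several places is not given in the sources. Peaks were called by the authors, per the file headers, with MACS 1.4.2 on merged replicates against merged inputs, at a p cutoff of 1e-05 and with 1 tag kept per position. For each peak the deposited table gives a count of tags, not normalized, a score (minus 10 times log10 p), a fold or ratio of ChIP over the local background, and the caller's FDR in percent. These are the authors' values and were used only to describe and rank peaks within their list.

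Genes came from a RefSeq table of GRCm38.p6 without exons or strand. The strand came from RefSeq promoter sequences, which matched 707 of the 945 genes over 200 kb, and positions were oriented only in these. Overlaps, gaps, spans and positions were computed with Python 3.11.15, pandas 2.3.3, numpy 2.4.6 and scipy 1.17.1, and plotted with matplotlib 3.10.9, and the code was tested on simulated data. Shares have exact Clopper-Pearson 95% intervals and medians exact order-statistic ones, for counting error only, since tags, neighbouring peaks and peaks of 1 gene are not independent. Lists from merged replicates allow no test between conditions. A gap used all control peaks with midpoints in the gene. The gaps with peaks joined in genes of 50 to 200 kb were the gaps of at least 1 kb. CpG was counted as CG, which reads the same on both strands.

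Genes were named by rule: the 10 with the most lost peaks, the 10 with the highest covered share, the 5 longest with a lost peak and with no control peak, the 5 with the widest gaps, the 3 with the shortest spans, the 2 leading members of each of 10 gene lists, and the genes of the strongest and weakest peaks and of those at each threshold. A few genes under this rule are not reported here. Other genes, such as those of the 5′ and 3′ layouts, of runs, inner starts, kept peaks and tag density, were named after their values were seen. The members and the lists were chosen with earlier results of these data known. Alternatives were other gene lengths (150 and 300 kb), a cover of 50% or a distance of 5 kb as the overlap rule, scores of 100 or more in either list, peaks within 1 kb joined, and other filters.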

Additional observations from a re-analysis of the deposited data

How the results depend on the processing

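Over 11 results and 11 alternatives, 92 of 120 values stayed within the 95% interval of the reported value, and 28 did not. For counts and values without an interval the limit was 1.5 times. The share in the final 20% at the 3′ end was added after seeing the data. Some of the 92 could not move. A limit of 5% on the control FDR changed no value, since no member exceeded 1.71%. Gap and span use all control peaks, so the overlap rule, the knockdown score and the limit on peak length could not change them. With genes over 150 kb there were 2851 lost peaks in 583 genes, 95.4% lost, a median gap of 5494 bp, 2.46% of length covered, 53.9% in the outermost 20% at both ends and 37.6% in the final 20%. With genes over 300 kb these were 733 peaks, 185 genes, 92.6%, 9292 bp and 0.900%, with 35.5% in the final 20%. With control peaks of score 100 or more there were 836 lost peaks in 241 genes, 91.6% lost, of median length 2843.5 bp, fold 4.53 and 47.6 tags per kb, with 61.4% in the outermost 20% at both ends, a span of 51.4% and 45.0% in the final 20%. The lost share was 96.4% when a kept peak had to be covered to 50%, 92.2% when a knockdown peak within 5 kb counted as overlap, and 98.4% with knockdown peaks of score 100 or more. With peaks within 1 kb joined, the density was 42.8 tags per kb, the gap 10918 bp and the outermost 20% at both ends 56.0%, and no fold could be given. The cause of these shifts was not tested, except that other gene lengths and scores change which peaks enter.

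No paired analysis was possible because the authors merged both replicates into 1 list per condition, and for the same reason no replicate could be left out. Of the 1688 members 852 had scores under 100, and the part of depth in their loss was not tested. Gene models without exons did not allow peaks to be placed in exons or introns.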
